A study of Glycine max with 3 samples.

Results

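The suspensor-low gene models described here are those of the soybean (Glycine max) seed that were well represented in embryo proper and in seed coat parenchyma at similar levels, and had far fewer reads in the suspensor. They were chosen on the measured values, as CPM (reads of a gene model per 1000000 reads assigned in its library). A gene model was a member when it had at least 40 CPM in both embryo proper and seed coat parenchyma, when its CPM + 1 in each was at least 4 times that in the suspensor, and when the ratio of embryo proper to seed coat parenchyma lay between 0.25 and 4. Of the 66210 gene models in the deposited tables, 2756 met the minimum of 40 CPM and 204 of these were members.

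All libraries came from cultivar Asgrow A3237, and the labels name no treatment, no replicate and no number of embryos or seeds. The suspensor and embryo proper libraries were made from laser-captured regions of globular-stage embryos, in pods 0.5 to 1.2 cm long and sections of 6 µm. The seed coat parenchyma library was made from seeds at early maturation, 6.0 to 7.0 mm long, in sections of 8 µm cut on another instrument. Each region gave 1 library from amplified cDNA, and differences were therefore judged against counting error alone, with no replicate check. Stage, section thickness and instrument cannot be told apart from tissue wherever the seed coat parenchyma is one side of a comparison.

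The suspensor is the stalk of cells that joins the young embryo to the maternal tissue. It supplies the embryo with nutrients and growth regulators and is removed by programmed cell death as the seed develops. The embryo proper is the part that forms the seedling, and at the globular stage its cells divide while the first tissue layers are laid down. Seed coat parenchyma is a maternal tissue through which assimilates pass on their way to the embryo. In genetic terms the embryo regions thus share a genotype of the new generation, while the seed coat is wholly maternal.

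The deposited tables give identifiers without gene names or products, and 0 of the 66210 identifiers matched the soybean reference table used here. The members are therefore described by their levels and their place in the identifier order, and no function, gene length or sequence is given. Without names, the labelled tissues could not be checked against marker genes. CPM is not corrected for gene length, so values are compared between libraries for the same gene model, and a difference in CPM between gene models also holds their lengths.

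The libraries held 8365831 assigned reads (suspensor), 11603055 (embryo proper) and 11894273 (seed coat parenchyma). At these depths 1 CPM stood for 8.37, 11.6 and 11.9 reads in that order. The suspensor library was thus the shallowest, and its 50 most abundant gene models took 26.4% of its reads, against 19.6% in embryo proper and 15.6% in seed coat parenchyma. Over the 20184 gene models averaging 5 CPM or more, the median log2 ratio of CPM + 1 was -0.23 for suspensor over embryo proper and -0.54 for suspensor over seed coat parenchyma. On these unscaled totals most gene models therefore stood somewhat lower in the suspensor, and the members are to be read against that shift.

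The members had a median level of 7.89 CPM in suspensor, 76.7 CPM in embryo proper and 77.5 CPM in seed coat parenchyma. In the suspensor the middle 50% of members lay between 3.20 and 11.7 CPM, and the whole set between 0 and 201 CPM. In the embryo proper the middle 50% lay between 54.7 and 114 CPM, and in the seed coat parenchyma between 55.7 and 117 CPM. The highest members reached 1570 CPM in embryo proper and 4095 CPM in seed coat parenchyma. Over all 2756 gene models at the minimum the medians were much closer together, at 70.7 CPM in suspensor, 94.6 CPM in embryo proper and 86.3 CPM in seed coat parenchyma. The rule used these levels in every library, so the wider gap in the members follows from it. In bulk RNA from captured tissue, fewer cells that carry a transcript and less of it in each cell cannot be told apart.

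**Figure D1:**
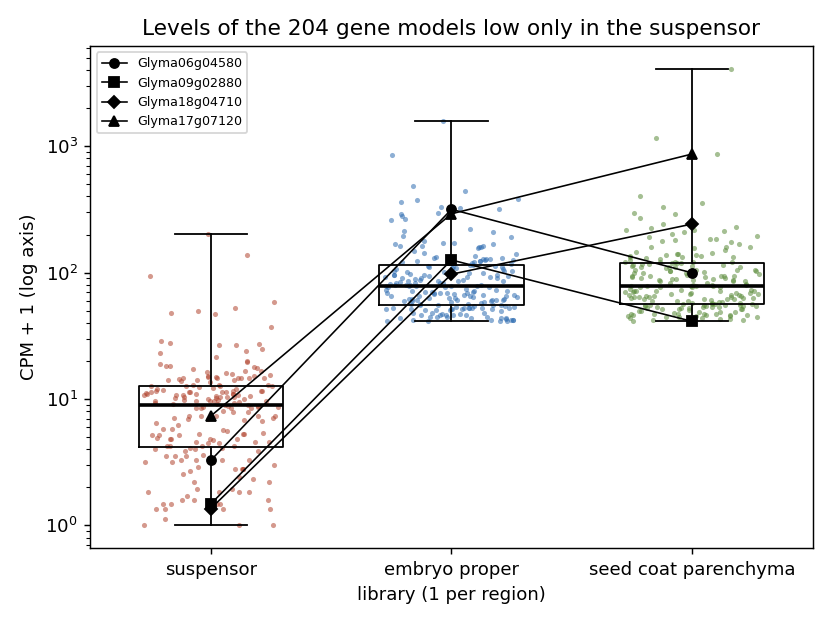
Levels of the 204 members in each library, as CPM + 1 on a log axis. Each point is a gene model, boxes show the median and quartiles with whiskers to the extremes, and black lines join the values of the 4 gene models named in the text. The suspensor box, with a median of 7.89 CPM, lies wholly below the boxes of embryo proper (76.7 CPM) and seed coat parenchyma (77.5 CPM). The members were chosen on these levels.

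Placed in the rank order of all 66210 gene models by reads, the members sat at a median rank of 12919 in suspensor, 2366 in embryo proper and 2502 in seed coat parenchyma. Ranks do not depend on the scaling of a library, though the membership of the set does. The 2756 gene models at the minimum had median ranks of 2329, 1818 and 2151 in the same order. The members together took 0.226% of suspensor reads (exact Clopper-Pearson 95% interval 0.223 to 0.230%). In the embryo proper they took 2.26% (2.25 to 2.27%) and in the seed coat parenchyma 2.55% (2.54 to 2.56%). Leaving out the member with the most reads, the shares were 0.206% in suspensor, 2.10% in embryo proper and 2.14% in seed coat parenchyma. The rule chose members for a low level in the suspensor and higher levels elsewhere. These ranks and shares therefore describe the set and do not set it apart. The intervals cover counting error only. Amplified reads without molecular identifiers are not independent molecules, so the intervals may be too narrow even for that.

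The suspensor to embryo proper difference was set by the rule at 4-fold or more, and the members spread widely beyond that limit. The median log2 ratio of CPM + 1, suspensor over embryo proper, was -3.31, with quartiles of -4.29 and -2.55 and an extreme of -6.60. Among all gene models at the minimum, 407 of 2756 (14.8%) were 4-fold or more lower in the suspensor than in the embryo proper, and the median log2 ratio over all 2756 was -0.61. A difference of 8-fold or more held for 116 members, against 5.48% of gene models at the minimum. For 63 members it was 16-fold or more (2.54% of gene models at the minimum) and for 31 it was 32-fold or more (1.27%). Because the rule used this ratio, these shares describe the set and do not set it apart.

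Against the seed coat parenchyma the members showed a similar spread of values. The median log2 ratio of CPM + 1, suspensor over seed coat parenchyma, was -3.26, with quartiles of -4.38 and -2.50 and an extreme of -7.48. Of the gene models at the minimum, 330 of 2756 (12.0%) were 4-fold or more lower in the suspensor than in the seed coat parenchyma, and the median over all 2756 was -0.39. Here too 116 members were 8-fold or more lower (5.33% of gene models at the minimum), 65 were 16-fold or more lower (2.90%) and 30 were 32-fold or more lower (1.38%). Both differences reached 8-fold for 95 members, 16-fold for 51 and 32-fold for 20. The ratios share the suspensor library, so a low suspensor count lowers both together.

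**Figure D2:**
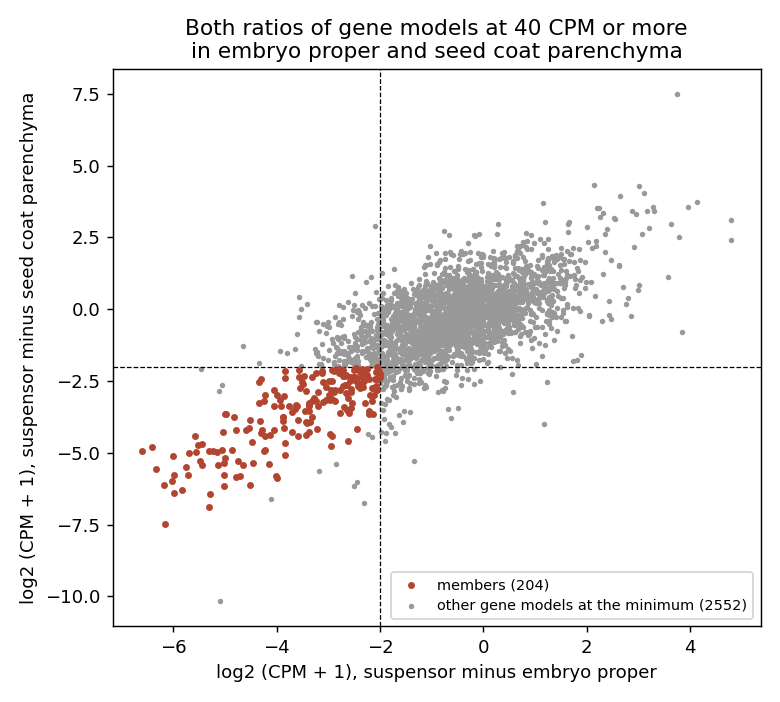
Log2 ratio of CPM + 1 for suspensor over embryo proper (x axis) and suspensor over seed coat parenchyma (y axis), for the 2756 gene models at 40 CPM or more in embryo proper and seed coat parenchyma. Members are red, other gene models grey, and dashed lines mark 4-fold lower in the suspensor. Grey points inside the lower left corner are the 12 gene models that were low in the suspensor but uneven between the other libraries.

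The lower left of that plot held 216 gene models (7.84% of those at the minimum), 4-fold or more lower in the suspensor than in both other libraries. Of these, 204 (7.40%) also met the limit on evenness. The 12 left out were uneven, 3 of them higher in the embryo proper and 9 higher in the seed coat parenchyma. In the opposite direction the suspensor exceeded both libraries by 4-fold or more for 33 gene models (1.20%). The minimum was applied to the other 2 libraries and not to the suspensor, so the directions were not treated alike. The median log2 ratios over these gene models were also negative, at -0.61 against embryo proper and -0.39 against seed coat parenchyma. The part of either in this balance was not tested.

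The 4 members named here had the lowest ratios of CPM + 1, 2 for each comparison. Their folds below are ratios of plain CPM, on which scale members with fewer suspensor reads can rank higher. Glyma06g04580, on chromosome 6, had 19 reads (2.27 CPM) in suspensor, 3661 reads (316 CPM) in embryo proper and 1171 reads (98.5 CPM) in seed coat parenchyma. Its CPM was 139-fold lower in the suspensor than in the embryo proper (counting interval 88.8 to 231) and 43.3-fold lower than in the seed coat parenchyma (27.6 to 72.3). The embryo proper library was the highest of the 3 for this gene model.

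Glyma09g02880, on chromosome 9, had 4 reads (0.478 CPM) in suspensor, 1448 reads (125 CPM) in embryo proper and 477 reads (40.1 CPM) in seed coat parenchyma. It was 261-fold lower in the suspensor than in the embryo proper, with a wide counting interval of 102 to 959, and 83.9-fold lower than in the seed coat parenchyma (32.5 to 309). Its seed coat level stood only just above the minimum of 40 CPM.

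Glyma18g04710, on chromosome 18, had 3 reads (0.359 CPM) in suspensor, 1115 reads (96.1 CPM) in embryo proper and 2868 reads (241 CPM) in seed coat parenchyma. Its CPM was 268-fold lower in suspensor than in embryo proper (counting interval 91.5 to 1301) and 672-fold lower than in seed coat parenchyma (230 to 3262). The seed coat parenchyma library was the highest for it.

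Glyma17g07120, on chromosome 17, kept a more precise suspensor count, with 53 reads (6.34 CPM). It had 3375 reads (291 CPM) in embryo proper and 10303 reads (866 CPM) in seed coat parenchyma. Its CPM was 45.9-fold lower in the suspensor than in the embryo proper (35.0 to 61.4) and 137-fold lower than in the seed coat parenchyma (104 to 183).

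The members ranged from gene models near the limit of detection in the suspensor to some that were still well represented there. In 22 members (10.8%) the suspensor level was under 1 CPM, with 0 to 8 reads. These had median levels of 58.0 CPM in embryo proper and 78.8 CPM in seed coat parenchyma. In 3 of the 22 no suspensor read was found, and 5 had 1 to 3 reads.

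The gene models without a suspensor read lie on chromosomes 2, 9 and 18. On chromosome 2 the level was 56.2 CPM in embryo proper and 76.8 CPM in seed coat parenchyma. For the one on chromosome 9 the levels were 51.6 and 53.2 CPM, and for the one on chromosome 18 they were 52.7 and 44.6 CPM, in the same order. With the suspensor set at the floor of 3 reads, or 0.359 CPM, they were at least 157-fold, 144-fold and 147-fold lower in the suspensor than in the embryo proper. Compared with seed coat parenchyma they were at least 214-fold, 148-fold and 124-fold lower. These folds hold at that floor, a convention. The lower ends of the exact 95% counting intervals were smaller, at 127-fold, 117-fold and 119-fold against embryo proper and 174-fold, 120-fold and 101-fold against seed coat parenchyma.

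A further 55 members stood at 1 to under 5 CPM in suspensor and 57 at 5 to under 10 CPM. The first of these groups had median levels of 3.11 CPM in suspensor, 68.8 CPM in embryo proper and 69.9 CPM in seed coat parenchyma. The second had 8.13, 68.1 and 65.3 CPM in that order. The level outside the suspensor was close in both groups. They were cut on the suspensor level, so the gap between their ratios follows from that cut. The largest group, 62 members at 10 to under 40 CPM in suspensor, had 13.6 CPM there, 92.9 CPM in embryo proper and 95.05 CPM in seed coat parenchyma.

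In 8 members the suspensor level was 40 CPM or more, so that they were present in all 3 libraries above the minimum. The highest of them, on chromosome 5, had 201 CPM in suspensor (1682 reads), 1570 CPM in embryo proper and 4095 CPM in seed coat parenchyma. It was 7.81-fold lower in the suspensor than in the embryo proper (counting interval 7.43 to 8.21) and 20.4-fold lower than in the seed coat parenchyma (19.4 to 21.4). It was also the highest member in both other libraries. The next, on chromosome 17, had 137 CPM in suspensor, 848 CPM in embryo proper and 1166 CPM in seed coat parenchyma. For the other 6 the suspensor level ran from 46.4 to 93.2 CPM, and on the scale of CPM + 1 the 8 had median log2 ratios of -2.59 against the embryo proper and -2.58 against the seed coat parenchyma.

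Members became a smaller share of the gene models at higher levels. Here the level was the geometric mean of embryo proper and seed coat CPM, and the gene models counted were the 2566 at the minimum with a ratio of embryo proper to seed coat between 0.25 and 4. From 40 to under 80 CPM, 108 of 1085 (9.95%) were members. From 80 to under 160 CPM it was 77 of 965 (7.98%), and at 160 CPM or more it was 19 of 516 (3.68%). The median log2 ratio of the members did not deepen with level. For suspensor over embryo proper it was -3.24, -3.41 and -2.96 in the classes from low to high, and for suspensor over seed coat parenchyma it was -3.19, -3.52 and -3.08. Over all gene models counted in these classes, the suspensor to embryo proper median was -0.51, -0.59 and -0.59. The suspensor to seed coat median was -0.59, -0.37 and -0.14. Over all gene models counted, the suspensor to seed coat difference was thus smaller at higher levels, while the suspensor to embryo proper difference was not. Any link of either to the share of members was not tested. CPM holds gene length, so these classes rank read numbers, not transcript numbers.

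On unscaled totals the members were balanced between the other 2 libraries. Exactly 102 were higher in the embryo proper and 102 were higher in the seed coat parenchyma, and the median log2 ratio of embryo proper over seed coat parenchyma was 0.01. The median over all gene models at the minimum was 0.13. This balance moves with the scaling of the libraries. Over gene models averaging 5 CPM or more, the median of that ratio was -0.25 on unscaled totals and 0.05 with TMM scaling, described below. The split of the members under other scalings was not counted. The 2 libraries differed by under 2-fold for 164 members (80.4%) and by under 1.5-fold for 117 (57.4%). Among the 2566 gene models with the same limits on evenness, 1822 (71.0%) lay within 2-fold and 1256 (48.9%) within 1.5-fold. A gene model far apart in those libraries has one level nearer to the suspensor and so passes the 4-fold limit on both sides less readily, which ties this share to the rule.

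On unscaled totals the minority that leaned to one side was of similar size in each direction. The 18 members at least 2-fold higher in embryo proper than in seed coat parenchyma had median levels of 8.61 CPM in suspensor, 161 CPM in embryo proper and 66.4 CPM in seed coat parenchyma. The 22 members at least 2-fold lower in embryo proper than in seed coat parenchyma had 6.04, 58.1 and 157 CPM in that order. The suspensor medians of these groups lay near the 8.07 CPM of the 164 even members, with 74.5 CPM in embryo proper and 74.1 CPM in seed coat parenchyma. Named members fell in both, with Glyma06g04580 and Glyma09g02880 leaning to the embryo proper and Glyma18g04710 and Glyma17g07120 to the seed coat parenchyma.

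Counting intervals were set beside the 4-fold limit as a description, since the same counts chose the members. They are for the ratio of plain CPM, which is larger than the ratio of CPM + 1 used by the rule. The lower bound of the 95% counting interval for the ratio of CPM was 4-fold or more for 183 members against embryo proper, for 179 against seed coat parenchyma and for 163 against both. In the remaining 41 at least 1 interval reached below 4-fold, down to 3.43-fold. All 22 members under 1 CPM in suspensor and all 55 at 1 to under 5 CPM were among the 163. Of the 62 at 10 to under 40 CPM only 38 were, since these lie nearer to the limit. Variation between embryos or seeds is not part of these intervals.

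**Figure D3:**
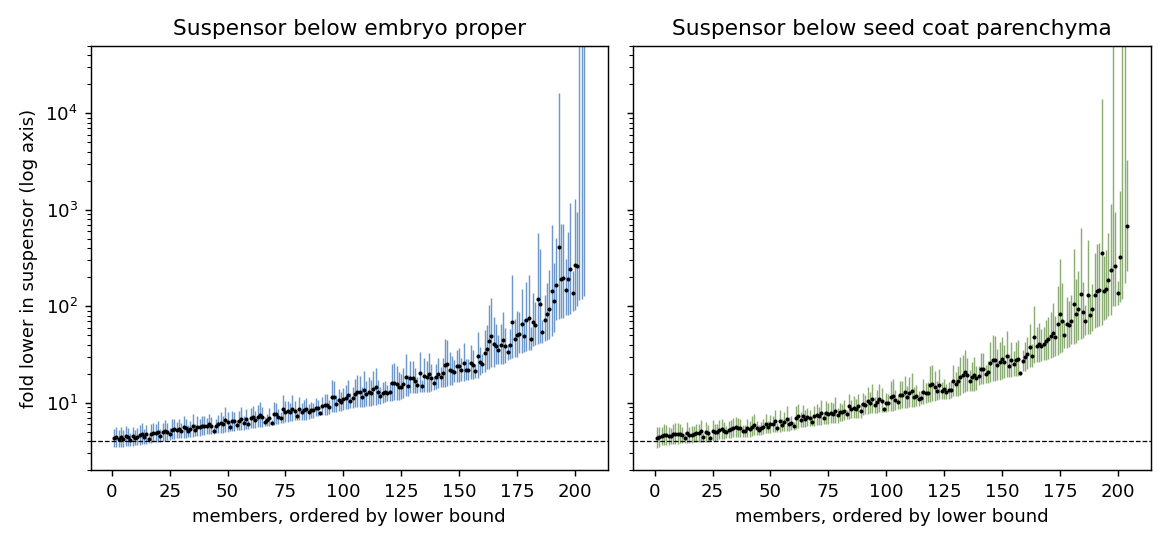
Fold by which the CPM of each member was lower in the suspensor than in the embryo proper (left) and the seed coat parenchyma (right), on a log axis, with exact 95% counting intervals as vertical lines and the ratio as a dot. Members are ordered by lower bound and the dashed line marks 4-fold. Lines that run off the top without a dot are the 3 members with no suspensor read.

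The limits of the rule cut through a dense part of the distribution. In 53 members the smaller of the 2 differences lay between 4-fold and 5-fold, and 119 gene models that met the minimum and the evenness limit fell just short, between 3-fold and 4-fold. The member nearest inside had 23.7 CPM in suspensor, 97.7 CPM in embryo proper and 118 CPM in seed coat parenchyma, with log2 ratios of -2.001 against the embryo proper and -2.27 against the seed coat parenchyma. The gene model nearest outside had 9.80 CPM in suspensor, 93.2 CPM in embryo proper and 42.1 CPM in seed coat parenchyma, with log2 ratios of -3.12 and -1.997 in the same order. At the abundance limit, the member nearest inside had 2.15 CPM in suspensor, 40.1 CPM in embryo proper and 60.6 CPM in seed coat parenchyma, and the gene model nearest outside had 7.77 CPM in suspensor, 39.8 CPM in embryo proper and 45.1 CPM in seed coat parenchyma. At the limit on evenness, the member nearest inside had 7.65 CPM in suspensor, 52.1 CPM in embryo proper and 207 CPM in seed coat parenchyma, and the gene model nearest outside had 12.7, 62.8 and 277 CPM in that order.

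The number of members depended on how the libraries were scaled. With TMM factors of 0.832 for the suspensor, 0.994 for the embryo proper and 1.21 for the seed coat parenchyma, which centre the ratios of the typical gene model near 0, 122 of the 204 remained and no other gene model was added. With DESeq2 size factors 112 remained. Upper-quartile scaling gave 134, of which 123 were members on unscaled totals, and totals without the 50 most abundant gene models gave 170, all of them members. On these scalings every one of the 204 still had a lower level in the suspensor than in both other libraries, by 2.72-fold or more on the scale of CPM + 1. That follows from the 4-fold limit and the size of the factors. Of the 22 members under 1 CPM in suspensor 18 remained with TMM, of the 55 at 1 to under 5 CPM 47, of the 57 at 5 to under 10 CPM 35, of the 62 at 10 to under 40 CPM 18, and of the 8 above that 4.

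The same rule was applied with each of the other libraries as the low one. On unscaled totals it found 204 gene models low only in the suspensor (7.40% of those at the minimum in the other libraries), 114 low only in the embryo proper (4.53%) and 204 low only in the seed coat parenchyma (7.71%). With TMM the numbers were 122, 123 and 301, and with DESeq2 size factors 112, 145 and 309. With upper-quartile scaling they were 134, 111 and 339, and with totals without the 50 most abundant gene models 170, 131 and 237. The suspensor set was thus larger than the embryo proper set on 3 of the 5 scalings, differed from it by 1 gene model with TMM and was smaller with DESeq2 size factors. Between libraries with 1 sample each, no test of these differences was possible.

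**Figure D4:**
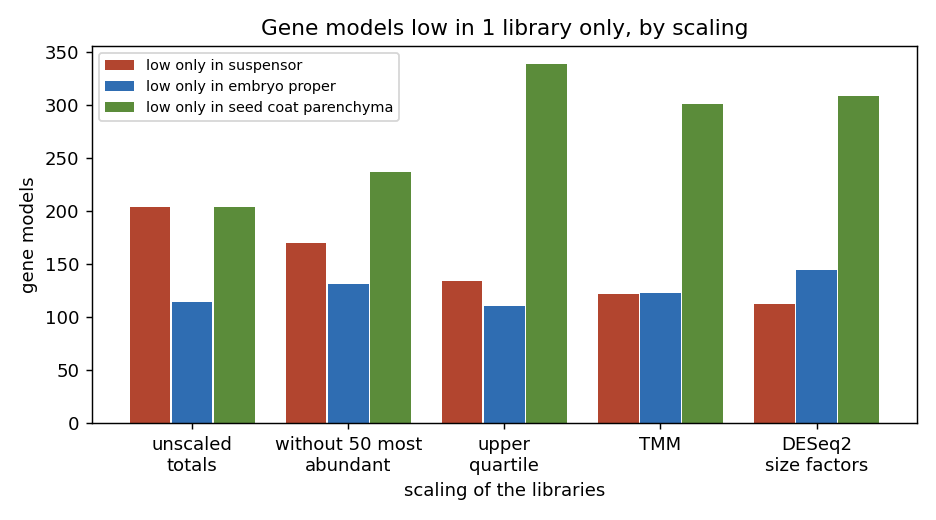
Number of gene models low in only 1 library (y axis) under 5 scalings of the libraries (x axis), for the suspensor, embryo proper and seed coat parenchyma. The suspensor bar is 204 on unscaled totals, 122 with TMM and 112 with DESeq2 size factors, while the seed coat parenchyma bar is 204, 301 and 309.

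The 3 sets also held gene models close to 0 in their low library. In the suspensor set 3 of 204 members had 0 reads in the suspensor and 22 (10.8%) were under 1 CPM. In the embryo proper set 1 of 114 had 0 embryo proper reads and 8 (7.02%) lay under 1 CPM. In the seed coat set 36 of 204 had 0 reads in the seed coat parenchyma and 55 (27.0%) were under 1 CPM. The median level in the low library was 7.89 CPM for the suspensor set, 8.83 CPM for the embryo proper set and 6.98 CPM for the seed coat set. The counts of 0 reads were not matched for depth, and the suspensor library is the shallowest. Most suspensor-low gene models thus kept a countable suspensor level, and 50 of the 204 had 100 suspensor reads or more.

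The members lay on all 20 chromosomes, taking the chromosome number from the identifier. None lay on an unplaced scaffold, but only 22 gene models there met the minimum, too few to read this as a result. Chromosomes 12 and 17 held the most, with 16 members each, and chromosome 16 the fewest, with 3. As a share of the gene models at the minimum, members made up 11.8% on chromosome 17 (exact 95% binomial interval 6.88 to 18.4%), 11.3% on chromosome 1 (5.99 to 18.9%), 10.9% on chromosome 12 (6.35 to 17.1%) and 3.53% on chromosome 16 (0.734 to 9.97%). The share over all gene models at the minimum, 7.40%, lay inside the interval of each of the 20 chromosomes. No chromosome thus stood apart by this measure. The binomial intervals treat gene models as independent draws and do not hold the counting error of reads.

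**Figure D5:**
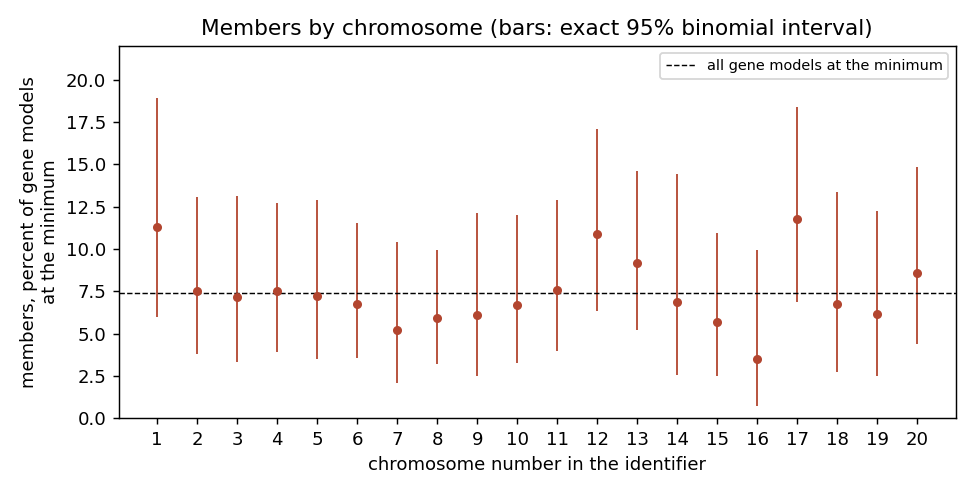
Members as a percentage of the gene models at 40 CPM or more in embryo proper and seed coat parenchyma (y axis), for each chromosome (x axis), with exact 95% binomial intervals. The dashed line marks 7.40%, the share over all gene models at the minimum, and it crosses every interval.

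No member stood directly next to another in the identifier order. Within 5 gene models there were 2 pairs, on chromosomes 8 and 17. The members were 204 of 66210 gene models in that order. How many pairs a scattered set of this size would give was not computed, so the pairs are a description only. The pair on chromosome 8 had 2.03 and 8.49 CPM in suspensor, 131 and 110 CPM in embryo proper, and 77.3 and 63.1 CPM in seed coat parenchyma. It enclosed 3 gene models, of which 1 went the other way, with 362 CPM in suspensor, 91.3 CPM in embryo proper and 116 CPM in seed coat parenchyma. Low suspensor counts on chromosome 8 thus did not extend across the whole stretch.

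On chromosome 17 the second of the pair was Glyma17g07120, described above. Its partner had 4.30 CPM in suspensor, 107 CPM in embryo proper and 49.8 CPM in seed coat parenchyma. Of the 4 gene models between them, 1 had 1.79 CPM in suspensor, 12.2 CPM in embryo proper and 53.2 CPM in seed coat parenchyma, below the minimum but lower in the suspensor too. Another had 17.8, 46.8 and 98.4 CPM in that order. All 4 had no more CPM in suspensor than in either other library, and 1 of them had 0 reads in both embryo regions.

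The neighbours of members were looked at because the rule did not use their levels. There were 407 gene models directly next to a member, of which 172 averaged 5 CPM or more across the libraries. The median log2 ratio of these 172 was -0.50 for suspensor over embryo proper and -0.72 for suspensor over seed coat parenchyma, against -0.21 and -0.52 for the 19808 other gene models compared. A level 4-fold or more below both libraries was found for 23 of the 172 neighbours (13.4%), against 8.79% of all 19980 non-members compared. Reads of overlapping neighbours cannot be told apart when the use of strand is unknown, the part of this in the neighbours' values was not tested, and the difference itself has no test.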

How the data were processed

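Each of the 3 laser-captured regions has 1 library, and the authors deposited 1 table of raw read counts per gene model for each, per the file headers. Reads were single-end, 76 nt long, and came from 3 to 5 ng of RNA amplified as cDNA with 15 PCR cycles, per the labels' protocols. The submitters' processing notes name Bowtie as a tool. Which version, genome build and annotation were used, whether strand was, and how reads with several hits were treated is not given in the sources used here, so counts of near-identical duplicated genes are uncertain.

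Counts were divided by the column sum and expressed as CPM with 1 CPM added for log2 ratios, and the members were found by the rule given above. The unit did not need changing from the planned one. No p-value was computed, because there is 1 library per region. Counting intervals for ratios and shares are exact Clopper-Pearson intervals at 95%. The member rule was tried on simulated counts with drops planted in abundant gene models. Those counts otherwise had equal means in all libraries and no amplification noise. They therefore do not test the rule under the shift between libraries seen here. The members, the lists and the settings were chosen with earlier results of these data known. The planned gene groups and marker lists rest on product names and were not analysed here. Named gene models are the 2 members with the lowest ratio in each comparison.

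Tools were pandas 2.3.3, NumPy 2.4.6, SciPy 1.17.1 and matplotlib 3.10.9 under Python 3.11.15, with edgeR 4.0.16 and DESeq2 1.42.0 in R 4.3.3 for scaling factors.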

Additional observations from a re-analysis of the deposited data

How the results depend on the processing

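No paired analysis was possible because there is a single library per region, and leaving out a replicate does not apply. The 204 members became 122 with TMM, 112 with DESeq2 size factors and 134 with upper-quartile scaling. They became 539 at a minimum of 20 CPM, 57 at 80 CPM, 1707 with only a mean of 5 CPM, 582 at 2-fold and 95 at 8-fold, because fewer or more gene models could pass. The other settings gave 158 to 210, among them 163 for the interval bound and 209 after thinning. Median log2 ratios moved beyond the typical counting interval with 5 CPM added, to -2.75 for suspensor over embryo proper and -2.70 for suspensor over seed coat parenchyma. The suspensor to seed coat median was -2.75 with TMM, -2.69 with DESeq2 size factors and -2.72 with upper-quartile scaling. The set low only in the seed coat parenchyma held 309 gene models with DESeq2 size factors and 339 with upper-quartile scaling, settings chosen after seeing the data. Pairs of members numbered 2 within 5 gene models and 0 side by side. Of 48 alternative values of the 4 named gene models 11 moved beyond their counting interval and none reversed. Product lists were not examined, for want of names. A floor of 3 reads stood for 0.359 CPM in suspensor, 0.259 CPM in embryo proper and 0.252 CPM in seed coat parenchyma.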
